A study of Mus musculus with 18 samples.

Results

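The 10 genes described here write, read out or erase cytosine methylation in DNA, or belong to the genes whose mutations drive clonal haematopoiesis, the outgrowth of blood cells from 1 mutant stem cell. They were taken by symbol from the deposited table, which held all 10 among its 14419 genes: Dnmt1, Dnmt3a, Dnmt3b, Uhrf1, Tet1, Tet2, Tet3, Idh1, Idh2 and Asxl1. Their RNA levels were compared across 6 groups of 3 libraries, made from sorted bone marrow stem and progenitor cells of C57BL/6 mice, all male and adult. Long-term stem cells (LT) and short-term stem cells (ST) came from animals given corn oil, the vehicle, or tamoxifen, a selective estrogen receptor modulator, for 2 weeks. Multipotent progenitors (MPP) came from animals given either for 1 week, so population and duration cannot be told apart wherever MPPs are set against LT or ST cells. The labels name no mutation, transgene or dose, and the libraries are called biological replicates in the design text. The sources used here do not say whether each was 1 mouse.

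Cytosines in CpG pairs are methylated de novo by DNMT3A and DNMT3B. At each round of DNA replication UHRF1 binds the hemimethylated sites behind the fork and brings in DNMT1, which copies the mark to the new strand. TET1, TET2 and TET3 oxidise methylcytosine in a reaction that consumes 2-oxoglutarate, the product of the isocitrate dehydrogenases IDH1 and IDH2. In humans, mutations of DNMT3A, TET2 and ASXL1, a partner of the histone H2A deubiquitinase BAP1, are the most frequent drivers of clonal haematopoiesis. The files measure RNA and no methylation.

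The libraries held 2728800 to 5279821 reads in listed genes. Values are normalised CPM, which are reads scaled by 1 constant per library, and every member had at least 38 reads in every library. Of the 10 long-term stem cell markers, 6 were lower in ST and 9 in MPP than in LT cells in oil, and 5 of 5 multipotent progenitor markers were higher in MPP than in LT cells. Of all genes, 28.5% were called in ST and 14.8% in MPP against LT cells. Markers of other cells were present in part. The 9 measured macrophage and monocyte markers summed to at most 704 normalised CPM, the 10 neutrophil markers to 720.4, the 10 erythroblast markers to 469.8 the 6 stroma and endothelium markers to 206, the 5 T and NK cell markers to 144 and the 8 B cell genes to 47.3. Pax5, Vpreb1, Cd3d, Cd3e and Cd3g had no entry. A pattern of transcript length ran through the populations. With the genes in 4 equal classes by their longest transcript, the median log2 difference of ST from LT cells in oil went from 0.38 to -0.33 from the shortest to the longest class. The spans for tamoxifen against oil were smaller (-0.10 to 0.056 in ST cells). In the sample titles the MPP and LT libraries are numbered in 1 series and the ST libraries start again from 1. The labels do not say what the numbers mark. Number series and population cannot be told apart where ST cells are set against LT cells or MPPs. The transcripts of Dnmt1, Dnmt3a, Tet1, Tet2, Tet3 and Asxl1 fall in the longest class, those of Dnmt3b and Uhrf1 in the next, Idh1 in the one after and Idh2 in the shortest. LT tamoxifen library A stood apart along transcript length in the opposite direction to the ST libraries, with a median log2 deviation from the mean over libraries of -0.28 in the shortest and 0.23 in the longest class, and 25.5% of its reads from mitochondrial ribosomal RNA.

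Tamoxifen went with higher Dnmt1 and Uhrf1, the pair that maintains methylation, in ST cells. These were the only 2 of the 10 members called there at an adjusted p under 0.05 by limma over all 14419 genes, beside 9.61% of all genes. The median log2 fold change of the members in ST cells was 0.17, against 0.0059 over all genes. In the mean of the 3 populations' tamoxifen effects the same 2 genes were called, beside 8.88% of all genes. In LT cells limma called 0 of 10 members, beside 0.416% of all genes. There 1 of 10 (Dnmt1) was under an unadjusted p of 0.05, beside 1952 of the 14419 genes. In MPPs limma called 0 of 10 members, beside 0.0555% of all genes. There 0 were under an unadjusted p of 0.05, beside 819 genes. Neither edgeR's quasi-likelihood test nor DESeq2 on the recovered reads called a member in LT cells or MPPs. Of all genes edgeR called 52 and 6 there, and DESeq2 300 and 28.

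**Figure D1:**
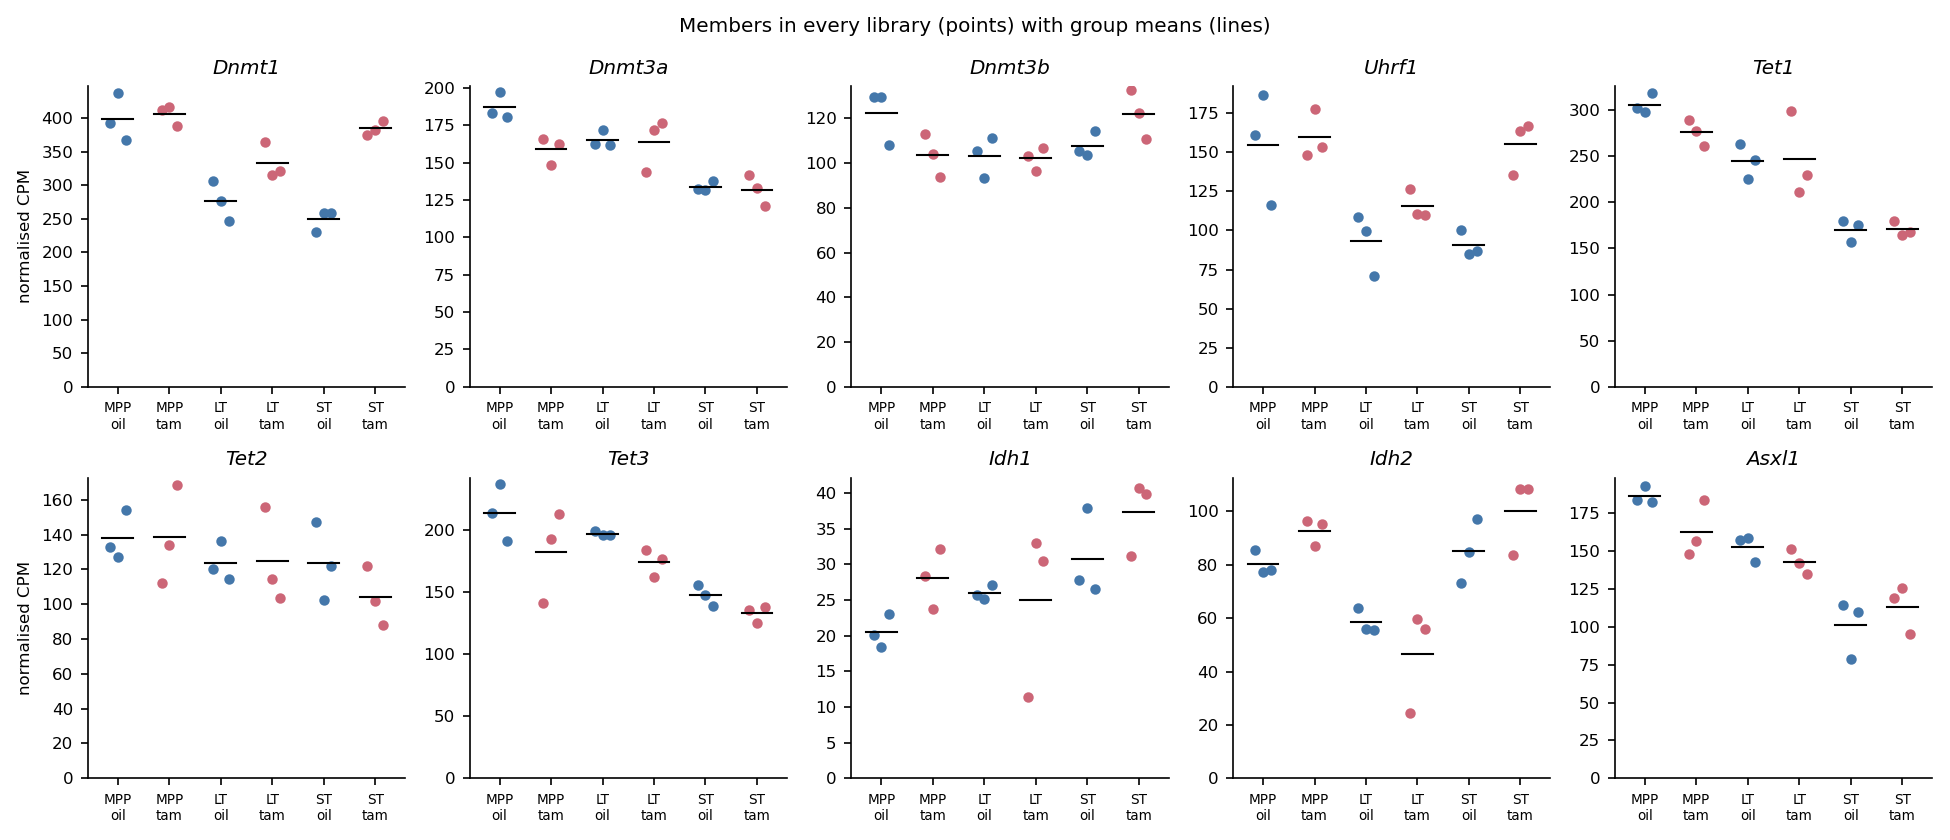
Normalised CPM (vertical axis, from 0, a scale per gene) of the 10 members in each of the 18 libraries, in 6 groups along the horizontal axis (oil in blue, tamoxifen in red), with a line at each group's mean. The 3 ST tamoxifen libraries lie above the 3 ST oil libraries for Dnmt1 and Uhrf1, and LT tamoxifen library A is the low point of that group for Idh1 and Idh2.

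**Figure D2:**
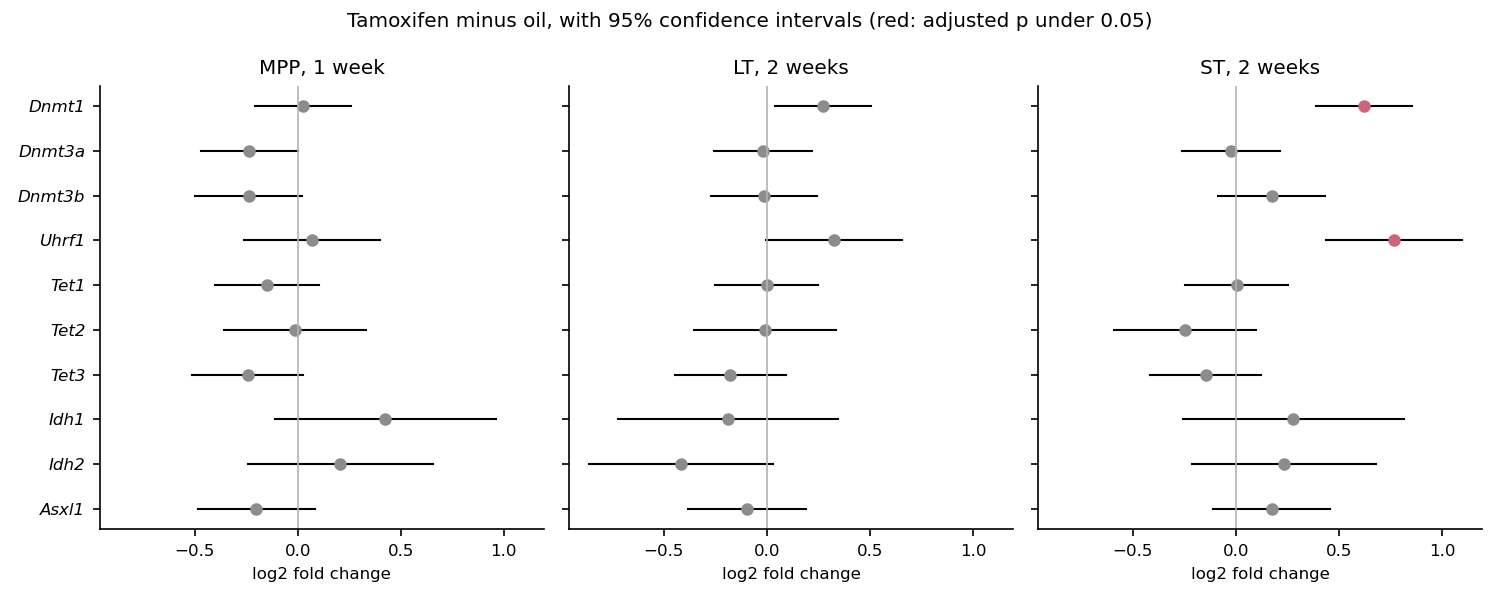
Log2 fold change of tamoxifen over oil (horizontal axis) with its 95% confidence interval for each member, in MPPs, LT cells and ST cells. The red points are Dnmt1 (0.62) and Uhrf1 (0.77) in ST cells, the only effects in the 3 panels past the threshold.

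Uhrf1, which reads hemimethylated CpGs and recruits DNMT1, measured 100.2, 85.0 and 86.9 in the ST oil libraries A, B and C and 135, 164 and 167 in ST tamoxifen. The groups do not overlap, and the tamoxifen mean was 1.70-fold the oil mean on the fitted scale (log2 fold change 0.77, SE 0.16, adjusted p = 0.00354). In LT cells the values were 109, 99.7 and 71.2 in oil and 127, 111 and 109.9 in tamoxifen, so that every tamoxifen library was above every oil library. That difference did not pass the test (log2 fold change 0.33, SE 0.16, adjusted p = 0.374). In MPPs they were 161, 187 and 117 in oil and 148, 178 and 154 in tamoxifen. The MPP oil libraries spread over the whole range of the tamoxifen libraries, and the interval of the log2 change ran from -0.26 to 0.40.

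Dnmt1, the maintenance methyltransferase itself, measured 231, 259 and 259 in ST oil and 375, 383 and 396 in ST tamoxifen. All 3 tamoxifen libraries exceeded all 3 oil libraries, by 1.54-fold on the fitted scale (log2 fold change 0.62, SE 0.11, adjusted p = 0.00120). In LT cells the 3 tamoxifen libraries (364, 315 and 322) were again above the 3 oil libraries (306, 277 and 247). The LT effect did not pass the test (log2 fold change 0.27, SE 0.11, adjusted p = 0.273), and without LT tamoxifen library A it was 0.21 (adjusted p = 0.474). In MPPs the values were 393, 438 and 368 in oil and 412, 416 and 388 in tamoxifen, which overlap.

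The 2 calls in ST cells held under each of the 19 alternatives run, with adjusted p between 9.71e-06 and 0.0245 for Dnmt1 and between 0.0010 and 0.0282 for Uhrf1. With the trends of transcript length and GC content removed, the log2 fold changes were 0.56 and 0.71. In the mean over the populations, Dnmt1 rose by 0.31 (SE 0.065, adjusted p = 0.00384) and Uhrf1 by 0.39 (SE 0.093, adjusted p = 0.00895) on the log2 scale. Without the mean trend and robust step in limma the Uhrf1 mean effect missed the threshold (adjusted p = 0.0509).

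Some markers of other cells also changed with tamoxifen in ST cells. Of all genes 9.61% were called there. The summed multipotent progenitor markers were 428 to 592 in ST tamoxifen and 651 to 907 in ST oil, and 1 of 5 (Satb1) was called lower. The summed erythroblast markers were 66.6 to 103 against 48.7 to 60.3, with 2 of 10 called higher, Klf1 (1.33) and Rhag (1.82). They did not rise together: 6 of the 10 had a log2 fold change above 0, while Alas2, Epb4.2, Hba-a1 and Hbb-b1 were below 0 and not called. The summed macrophage and monocyte markers, 597 to 704 against 499.8 to 688, overlapped, with 1 of 9 called higher. Of the 10 long-term stem cell markers 3 were called higher, Mecom (0.74), Tek (0.81) and Ctnnal1 (0.86), and 1 lower, Meis1 (-0.37, named after its value was seen), while their sums overlapped (1095 to 1139 against 1088 to 1365). Without ST oil library A 1 of these 10 was called and 0 of the other 3 lists. Their part in the change of Dnmt1 and Uhrf1 was not tested. In sorted bulk RNA, a change in the cells that express a gene and a change in its RNA per cell cannot be told apart.

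Whether the tamoxifen effect differed between populations was tested by the difference of effects. For ST minus LT cells limma called 0 of 10 members, beside 0.0555% of all genes. At an unadjusted p under 0.05 there were 2 of 10, Dnmt1 (0.35, adjusted p = 0.354) and Idh2 (0.65, adjusted p = 0.375), beside 1860 of all 14419 genes. For MPP minus LT cells limma called 0 of 10, beside 0% of all genes. Under an unadjusted p of 0.05 there were 0, beside 808 genes. For MPP minus ST cells limma called 0 of 10, beside 0.00694% of all genes. There 3 of 10 had an unadjusted p under 0.05, Dnmt1, Uhrf1 and Dnmt3b, beside 1742 genes. The Dnmt1 effect in MPPs was lower than in ST cells by a log2 difference of -0.60 (SE 0.16, unadjusted p = 0.000888, adjusted p = 0.164). DESeq2 called that difference (adjusted p = 0.0130), while edgeR called 0 members in any of the 3 differences and DESeq2 called 0 in the others. By limma the Dnmt1 difference also passed with array weights (adjusted p = 0.0368) and when LT tamoxifen library A was left out of the shared fit (adjusted p = 0.0286), both at a log2 difference of -0.60. Its call thus depends on the setting, and no member's effect in ST cells was called different from that in LT cells.

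The populations also differed in Dnmt1 and Uhrf1 in oil. Dnmt1 was highest in MPPs (399 ± 35.2, SD, n = 3), then LT cells (277 ± 29.9) and ST cells (249.9 ± 16.2), and the LT and ST ranges overlap. The Uhrf1 means were 155 ± 35.5, 93.3 ± 19.7 and 90.7 ± 8.29. The order of LT and ST cells is not called for either gene and turned with the length and GC trends removed (ST minus LT 0.24 for Dnmt1 and 0.11 for Uhrf1). MPPs exceeded LT cells for Dnmt1 (log2 fold change 0.53, SE 0.11, adjusted p = 0.00123) and for Uhrf1 (log2 fold change 0.72, SE 0.16, adjusted p = 0.00189), and these were the 2 members of 10 called, beside 14.8% of all genes. The Uhrf1 call was lost when the fit held only the groups compared (adjusted p = 0.0713). Under tamoxifen ST cells reached the range of MPPs, with Dnmt1 at 385 ± 10.9 in ST and 406 ± 15.2 in MPP tamoxifen, groups whose ranges overlap.

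Dnmt1 and Uhrf1 varied together over the 18 libraries (Pearson r of 0.926 on log2 values). The start-site windows of both genes are shown because both hold letters of a kind that few of all promoter windows hold, a choice made after the windows were searched. RefSeq windows of 300 bases, from 250 bases before to 50 after each start site (build GRCm38.p6, which is not the build of the files), matched 10 of 10 members with 16 windows. Below is the window with the most CpG pairs (33 in each) for each gene, on its coding strand, with the matches to TTTCGCGC or TTTGGCGC on either strand, the usual core of binding sites of E2F factors, in capitals.
Dnmt1, chr9:20952574-20952873, minus strand: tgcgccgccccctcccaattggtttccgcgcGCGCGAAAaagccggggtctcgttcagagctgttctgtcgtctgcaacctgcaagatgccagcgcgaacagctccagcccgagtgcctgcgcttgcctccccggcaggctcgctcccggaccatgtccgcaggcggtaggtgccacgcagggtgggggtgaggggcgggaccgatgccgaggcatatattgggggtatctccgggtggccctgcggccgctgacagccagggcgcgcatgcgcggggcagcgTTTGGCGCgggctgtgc
Uhrf1, chr17:56304063-56304362, plus strand: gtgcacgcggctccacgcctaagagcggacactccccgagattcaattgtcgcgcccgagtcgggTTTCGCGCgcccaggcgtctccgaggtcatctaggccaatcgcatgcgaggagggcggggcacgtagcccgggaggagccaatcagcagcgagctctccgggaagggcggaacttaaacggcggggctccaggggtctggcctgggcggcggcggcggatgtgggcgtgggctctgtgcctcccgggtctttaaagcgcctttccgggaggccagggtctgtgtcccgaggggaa
Counted from the start site of the window shown, the matches begin 219 bases before and 33 bases after it for Dnmt1 and 185 bases before it for Uhrf1. Both genes also have start sites further upstream, with windows at chr9:20952930-20953229 and chr9:20959839-20960138 for Dnmt1 and chr17:56303087-56303386 for Uhrf1. Counted from those, the matches lie downstream of the start site. Which start sites these cells used was not tested. Of all 32851 windows, 0.323% hold TTTCGCGC and 0.514% hold TTTGGCGC, and 0.813% hold either, on either strand. The median of all windows is 7 CpG pairs, against 33 in each window shown, and both cores themselves contain CpG. The share among windows as rich in CpG was not computed. Among the 16 windows of the members these 2 were the only ones with a match. Another E2F-type core, TTCCCGCC, was in 2.19% of all windows, in another Uhrf1 window and in the Asxl1 window. The full estrogen response palindrome was in none of the 16, and in 0.0700% of all windows. A match is a string of letters and not a measured site.

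The genes of DNA replication, the process that maintenance methylation accompanies, were compared with Dnmt1 and Uhrf1. Of 26 measured (helicase subunits, primase, clamp loaders, ribonucleotide reductase and others), 9 rose and 0 fell with tamoxifen in ST cells, beside 9.61% of all genes called, with a list median log2 fold change of 0.24. Mcm6, a subunit of the replicative helicase, was 290.3 ± 10.7 against 186 ± 17.3 (log2 fold change 0.64, adjusted p = 0.00169), Mcm2 of the same helicase changed by 0.58 and Rrm1, the large subunit of ribonucleotide reductase, by 0.58. The count was 4 without ST tamoxifen library C, 5 without ST oil library A or ST tamoxifen library B, and 3 under quantile normalisation. The list's medians were 0.13 in LT cells and 0.099 in MPPs, where limma called 0 of 26. At an unadjusted p under 0.05 there were 8 of 26 in LT cells and 0 in MPPs, beside 1952 and 819 of all 14419 genes. DESeq2 called 3 and 0, beside 300 and 28 of all genes. With edgeR the counts were 0 and 0, beside 52 and 6.

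In ST cells the summed level of the 26 replication genes was 1919 to 2079 with oil and 2559.6 to 2649.6 with tamoxifen, against 1531 to 1799.7 and 1938 to 2027 in LT cells. In the deposited values, which hold the pattern of transcript length, Dnmt1 did not keep a fixed ratio to this sum. It was 12.5% ± 1.23 (SD, n = 3) of the sum in ST oil, 14.8% ± 0.342 in ST tamoxifen, 16.5% ± 0.465 in LT oil and 18.5% ± 0.413 in MPP oil, with no overlap between ST oil and the other groups. Dnmt1 is in the longest class, whose median log2 deviation was -0.26 to -0.21 in the ST oil libraries. The ratio was not computed with the length and GC trends removed. There Dnmt1 in oil was 0.24 higher in ST than LT cells by limma (adjusted p = 0.0998). Across the 18 libraries the Pearson r with the summed level was 0.713 for Dnmt1 and 0.800 for Uhrf1, a description over libraries that share their groups. For the deviations from group means r was 0.632 and 0.714. Of the other members, Idh2 gave 0.565, Dnmt3b 0.449 and Idh1 0.283 over the libraries. Asxl1, Tet1, Tet2, Dnmt3a and Tet3 gave -0.14, -0.19, -0.21, -0.31 and -0.40. For the deviations from group means these other members ran from -0.17 (Tet2) to 0.23 (Tet3).

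**Figure D3:**
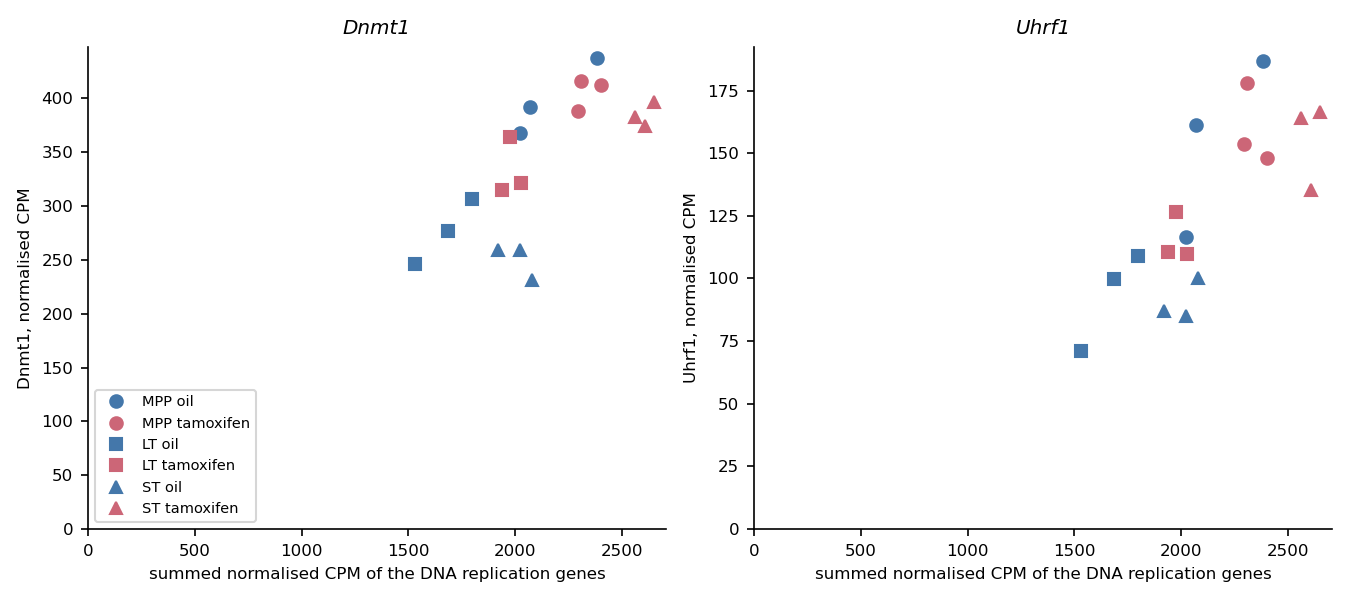
Normalised CPM of Dnmt1 (left) and Uhrf1 (right) in each of the 18 libraries against the summed normalised CPM of the 26 DNA replication genes, by population (circles MPP, squares LT, triangles ST) and treatment (oil blue, tamoxifen red). The 3 ST oil libraries lie at sums of 1919 to 2079 with the lowest Dnmt1 for that sum, 12.5% ± 1.23 of it. The values are those deposited, with the trend of transcript length not removed.

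Of 14 other measured partners of maintenance methylation, limma called 1 higher and 0 lower with tamoxifen in ST cells, beside 9.61% of all genes called. It was Trim28, a corepressor that keeps retroelements and imprints methylated, at 259 ± 38.5 against 198 ± 12.2 (log2 fold change 0.38, adjusted p = 0.0436), and the call was lost in 5 of 6 fits that left out 1 library, in all but that without ST tamoxifen library A, and with the length and GC trends removed. In the mean effect Lig1, the replicative DNA ligase (log2 fold change 0.33, adjusted p = 0.0240), and Pcna, the sliding clamp (log2 fold change 0.26, adjusted p = 0.0370), rose. Lig1 lost its call in 2 and Pcna in 10 of 18 fits that left out 1 library. In oil, 3 of 14 were higher and 2 lower in ST than LT cells, beside 28.5% of all genes called. The PCNA-associated factor 2810417H13Rik, which UHRF1 also ubiquitylates to recruit DNMT1, stood at 74.5 ± 16.9 against 21.2 ± 1.88 (log2 fold change 1.74, adjusted p = 2.36e-08), and Pcna at 454 ± 65.5 against 208 ± 24.8. For Dnmt1 and Uhrf1 the log2 differences were -0.14 and -0.021 (adjusted p = 0.372 and 0.941), not past the threshold. With the length and GC trends removed, where both turned their direction, neither was called.

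Of the de novo methyltransferases, Dnmt3a was called between populations and not with tamoxifen. In oil it measured 183, 197 and 181 in MPPs, 163, 172 and 162 in LT cells and 132, 131 and 138 in ST cells. The 3 groups do not overlap, with MPPs highest and ST cells lowest. The MPP difference from LT cells did not pass the test. ST cells were below LT cells (log2 fold change -0.30, SE 0.12, adjusted p = 0.0487) and MPPs above ST cells (log2 fold change 0.48, SE 0.12, adjusted p = 0.00227). With the length and GC trends removed the differences became 0.15 (adjusted p = 0.405) and 0.067 (adjusted p = 0.728), so neither call held and the first turned its direction. The ST against LT call was also lost by leaving out any 1 of its 6 libraries.

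With tamoxifen, Dnmt3a measured 166, 148 and 163 in MPPs, below all 3 oil libraries, but the change did not pass the test (log2 fold change -0.23, SE 0.12, adjusted p = 0.881). In ST cells it was 142, 133 and 121, on both sides of the oil libraries, with an interval of the log2 change of -0.26 to 0.21. In LT tamoxifen, library A was the lowest of 144, 172 and 176.

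Dnmt3b, the paralogue known mainly from the early embryo, was called in none of the 10 comparisons. The means ran from 102 ± 5.21 in LT tamoxifen to 122 ± 12.3 in MPP oil, and each group's range overlaps the next. In ST cells it was 105, 104 and 114 in oil and 132, 122 and 111 in tamoxifen, which overlap.

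Among the dioxygenases that oxidise methylcytosine, Tet1 had the largest log2 difference between MPPs and ST cells in oil. In oil Tet1 measured 302, 298 and 318 in MPPs, 263, 225 and 246 in LT cells and 179, 157 and 175 in ST cells. The 3 ranges do not overlap. The MPP difference from LT cells did not pass the test. It did with array weights, with only the groups compared and without LT tamoxifen library A in the shared fit (adjusted p = 0.0082, 0.0045 and 0.0178). With the length and GC trends removed it was 0.31 (adjusted p = 0.0253). ST cells lay below LT cells (log2 fold change -0.52, SE 0.12, adjusted p = 0.00210) and MPPs above ST cells by 1.79-fold (log2 fold change 0.84, SE 0.12, adjusted p = 9.57e-06). With the length and GC trends removed, the MPP difference from ST cells was 0.49 (adjusted p = 0.000503) and still called, while the ST difference from LT cells was -0.18 (adjusted p = 0.205) and was not.

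Tamoxifen values of Tet1 lay beside the oil values in LT and ST cells, at 180.0, 164 and 168 in ST cells (log2 interval -0.25 to 0.25). LT tamoxifen library A was the highest of 299, 212 and 229, and without it the LT change was -0.15 (adjusted p = 0.669). In MPPs all 3 tamoxifen libraries (289, 277 and 261) were below all 3 oil libraries, a difference that did not pass the test (log2 fold change -0.15, SE 0.12, adjusted p = 0.959).

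Tet3 had the same order of populations in oil, with 214, 237 and 192 in MPPs, 199, 196 and 196 in LT cells and 156, 148 and 139 in ST cells. The MPP libraries enclose the LT libraries, and the ST libraries are below both. ST cells were lower than LT cells (log2 fold change -0.42, SE 0.13, adjusted p = 0.0176) and than MPPs (log2 fold change 0.53, SE 0.13, adjusted p = 0.00295, MPP minus ST). Neither call held with the length and GC trends removed, where the differences were 0.070 and 0.10. The ST against LT call was also lost without LT oil library A or ST oil library C (adjusted p = 0.0532 and 0.0598). The Tet3 group mean was lower under tamoxifen in all 3 populations, with a mean log2 change of -0.19 (SE 0.076, unadjusted p = 0.0193) that did not pass the adjusted threshold (adjusted p = 0.120). Under quantile normalisation and with array weights it did pass (adjusted p = 0.0247 and 0.0449).

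Tet2, the family member mutated most often in clonal haematopoiesis, was called in none of the 10 comparisons. Its oil means were 138 ± 14.2 in MPPs, 124 ± 11.3 in LT cells and 124 ± 22.6 in ST cells, and the ranges overlap. The interval of the log2 difference of ST from LT cells was -0.36 to 0.33. In ST tamoxifen it measured 122, 102 and 88.0 against 147, 102 and 122 in ST oil, an overlap.

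Genes that act after oxidation, in the base excision of formylcytosine and carboxylcytosine or as TET partners, numbered 17 in the table. With tamoxifen 1 rose and 1 fell in ST cells, beside 9.61% of all genes called: Parp1, a sensor of DNA strand breaks, at 251 ± 36.7 against 164 ± 12.6 (log2 fold change 0.60, adjusted p = 0.00313), and Ogt, the O-GlcNAc transferase that binds TET2 and TET3 and modifies HCFC1, at 544 ± 39.1 against 722 ± 19.2 (log2 fold change -0.41, adjusted p = 0.0211). In oil Neil3, a DNA glycosylase, was 89.9 ± 26.5 against 16.1 ± 6.01 in ST against LT cells (log2 fold change 2.42, adjusted p = 1.65e-06), 1 of 3 genes of the list that were higher there, beside 2 that were lower. Of all genes 28.5% were called in that comparison. Of 14 readers of methylated or bare CpGs, 2 rose and 1 fell with tamoxifen in ST cells, beside 9.61% of all genes called. Cxxc1, which binds unmethylated CpGs, was 90.3 ± 10.3 against 55.5 ± 1.91 (log2 fold change 0.69, adjusted p = 0.00323), Mbd2, a methyl-CpG binder, changed by 0.56 and Mbd6, a methyl-CpG-binding domain protein of the BAP1 complex, by -0.50. The calls of Ogt, Mbd2 and Mbd6 were each lost in 4 of 6 fits that left out 1 library, ST oil library A, ST oil library B and ST tamoxifen library A among them. In oil 6 of the 14 readers were lower in ST than LT cells and 0 higher, beside 28.5% of all genes called in either direction. With the length and GC trends removed 1 was lower and 1 higher, beside 2941 of the 13693 genes with a transcript length.

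Idh2, the mitochondrial isocitrate dehydrogenase, was lowest in LT cells. In oil it measured 63.9, 55.9 and 55.6 in LT cells, 73.2, 84.7 and 97.2 in ST cells and 85.5, 77.2 and 78.0 in MPPs. The LT libraries are below all oil libraries of the other populations, which overlap each other. By limma neither the ST difference from LT cells (log2 fold change 0.53, SE 0.22, adjusted p = 0.0719) nor the MPP difference (log2 fold change 0.45, SE 0.22, adjusted p = 0.191) passed the adjusted threshold. The ST difference passed with edgeR (adjusted p = 0.0457) and with DESeq2 (adjusted p = 0.0309), and both passed when the shared fit left out LT tamoxifen library A (adjusted p = 0.0022 and 0.0131). With the length and GC trends removed the ST difference was 0.40 (adjusted p = 0.0781) and was not called. The MPP difference was then 0.57 (adjusted p = 0.0135) and was called. Tamoxifen values were 83.8, 108 and 108 in ST cells, overlapping oil, and 96.3, 87.0 and 95.1 in MPPs, all above oil but not called (log2 fold change 0.21, SE 0.22, adjusted p = 0.975).

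Idh1, the cytosolic enzyme, was the member with the fewest reads, between 38 and 155 per library. In oil it measured 20.1, 18.5 and 23.1 in MPPs, 25.7, 25.2 and 27.2 in LT cells and 27.8, 37.9 and 26.5 in ST cells. MPPs were below all other oil libraries, and the difference from ST cells missed the adjusted threshold (log2 fold change -0.55, SE 0.26, adjusted p = 0.115). By limma that difference passed with array weights, with only the groups compared and without LT tamoxifen library A in the shared fit (adjusted p = 0.0295, 0.0463 and 0.0180). With the length and GC trends removed it was -0.33 (adjusted p = 0.370) and was not called. In MPPs all 3 tamoxifen libraries (28.3, 23.7 and 32.1) were above all 3 oil libraries, a difference that did not pass the test (log2 fold change 0.42, SE 0.26, adjusted p = 0.936). Library A gave the low value of both genes in LT tamoxifen, 11.5, 33.0 and 30.5 for Idh1 and 24.5, 59.8 and 55.8 for Idh2. Without it the LT tamoxifen effect went from -0.19 to 0.28 for Idh1 and from -0.41 to -0.014 for Idh2, and none of these was called. Without the same library the mean tamoxifen effect on Idh1 was 0.33 (adjusted p = 0.0465), which passed the threshold, against 0.17 (adjusted p = 0.535) with it.

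With tamoxifen in ST cells Idh1 and Idh2 were not called (adjusted p = 0.545 and 0.538). Of 16 other measured enzymes that make or use 2-oxoglutarate or its products, 7 rose and 0 fell there, beside 9.61% of all genes called. The list median was 0.39 beside 0.0059 over all genes. Glud1, glutamate dehydrogenase, was 396 ± 21.9 against 244 ± 52.1 (log2 fold change 0.72, adjusted p = 0.000829). Got2, the mitochondrial aspartate aminotransferase, changed by 0.78 and Dlst, a subunit of the 2-oxoglutarate dehydrogenase complex, by 0.64. Of 19 measured genes that supply the methyl donor S-adenosylmethionine through folate and methionine, 5 rose and 0 fell, beside the same 9.61%. Their list median was 0.40. Mthfd1, a folate enzyme, was 69.1 ± 2.12 against 40.7 ± 0.817 (log2 fold change 0.75, adjusted p = 0.00406), Shmt2, the mitochondrial serine hydroxymethyltransferase, changed by 0.64 and Mat2a, the synthase of the donor, by 0.53. The count for the methyl donor list was 3 without ST tamoxifen library B and 3 under quantile normalisation. In LT cells the medians were 0.14 and -0.0090, and in MPPs 0.15 and 0.023, and limma, edgeR and DESeq2 called 0 genes of either list in those populations. At an unadjusted p under 0.05 there were 1 and 5 in LT cells, beside 1952 of all 14419 genes. In MPPs there were 1 and 0, beside 819 genes. In oil Mthfd1 was lower in ST than LT cells, 40.7 ± 0.817 against 102 ± 10.8 (log2 fold change -1.30, adjusted p = 1.02e-06).

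**Figure D4:**
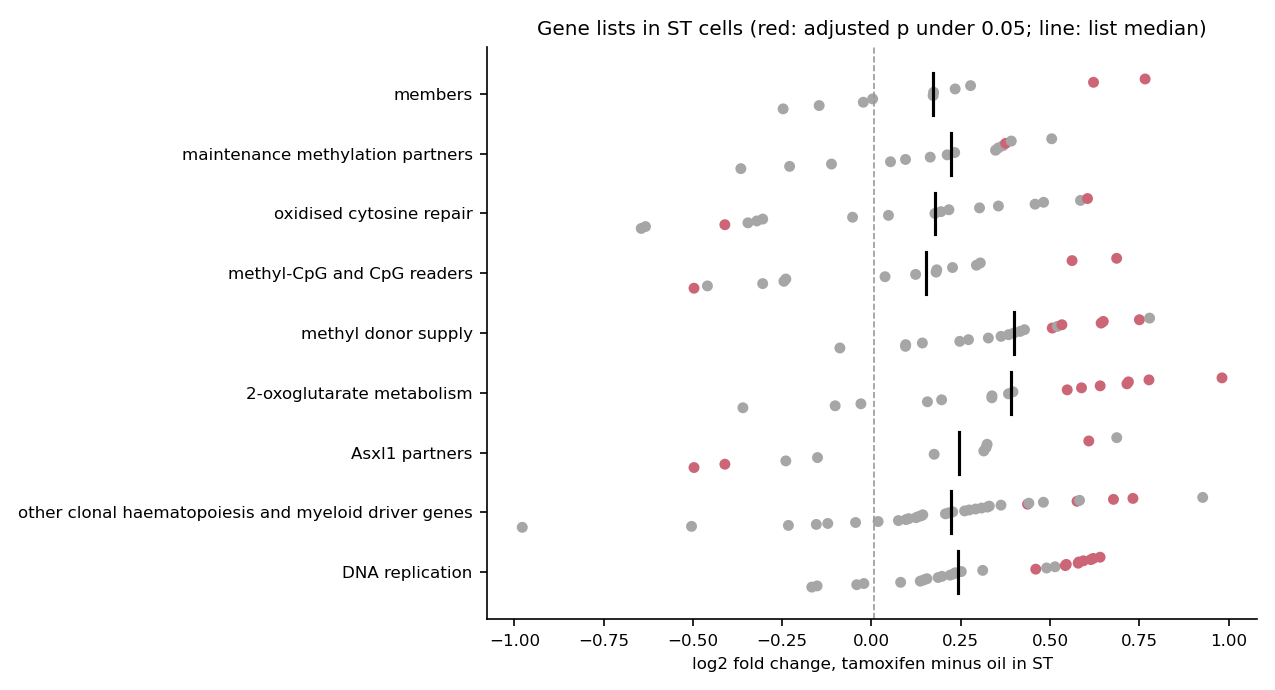
Log2 fold change of tamoxifen over oil in ST cells for each gene of the members and of 8 related lists (points, red where the adjusted p is under 0.05), with each list's median as a line and the median of all genes (0.0059) dashed. The list medians of methyl donor supply (0.40) and 2-oxoglutarate metabolism (0.39) are the farthest to the right.

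Asxl1, the chromatin adaptor of BAP1, was highest in MPPs. In oil it measured 184, 193 and 183 in MPPs, 157, 159 and 143 in LT cells and 115, 78.7 and 109.8 in ST cells. The 3 ranges do not overlap, and ST cells are lowest. The MPP difference from LT cells did not pass the test. It passed only with array weights and with only the groups compared (adjusted p = 0.0488 and 0.0187), both at a log2 difference of 0.28. MPPs exceeded ST cells by 1.86-fold (log2 fold change 0.90, SE 0.14, adjusted p = 2.17e-05) and ST cells were below LT cells (log2 fold change -0.61, SE 0.14, adjusted p = 0.00148). With the length and GC trends removed the first was 0.51 (adjusted p = 0.00346) and the second -0.21 (adjusted p = 0.243), which lost its call. Tamoxifen values overlapped the oil values in LT and ST cells, at 119, 126 and 95.4 in ST cells. In MPPs they were 148, 157 and 184, where library 3 lay among the oil libraries and the other 2 below them, and the change was not called (adjusted p = 0.936).

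Among 10 measured partners of ASXL proteins and BAP1, 1 rose and 2 fell with tamoxifen in ST cells, beside 9.61% of all genes called. Hcfc1, a transcriptional coregulator bound by BAP1, was 351 ± 9.47 against 230.0 ± 2.81 (log2 fold change 0.61, adjusted p = 0.000989), while Ogt and Mbd6 fell with the values given above. In oil Hcfc1 was 230.0 ± 2.81 against 444 ± 12.0 in ST against LT cells (log2 fold change -0.95, adjusted p = 3.26e-07), 1 of 4 partners called lower, and 0 were called higher. In that comparison 28.5% of all genes were called. With the length and GC trends removed 2 partners were lower and 1 higher, beside 2941 of the 13693 genes with a transcript length. Of 32 other genes mutated in clonal haematopoiesis and myeloid disease, 4 rose and 0 fell with tamoxifen in ST cells, beside 9.61% of all genes called. Prpf8, a core splicing factor, was 531 ± 50.7 against 319 ± 32.1 (log2 fold change 0.73, adjusted p = 0.000286), and the cohesin subunits Smc3 and Rad21 changed by 0.68 and 0.44. The counts moved with the setting. They were 2 higher and 2 lower under quantile normalisation, 3 and 2 with edgeR, 3 and 1 with TMM scaling, 7 and 1 with only the groups compared, and 9 and 1 when LT tamoxifen library A was left out of the shared fit. They were 2 and 0 without ST oil library A or B or ST tamoxifen library B or C, and Rad21 lost its call in 4 of 6 fits that left out 1 library. In LT cells 1 of 32 was called with tamoxifen, the stem cell factor receptor Kit, which was lower at 741 ± 52.6 against 1086 ± 61.2 (log2 fold change -0.55, adjusted p = 0.0159), a call lost in 4 of 6 fits that left out 1 library. Of all genes 0.416% were called with tamoxifen in LT cells. In oil 5 of the 32 were higher and 15 lower in ST than LT cells, beside 28.5% of all genes called. With the length and GC trends removed these counts were 2 and 9, beside 2941 of the 13693 genes with a transcript length. Setbp1, which encodes a SET-binding protein, was 1.41 ± 0.546 against 15.8 ± 1.13 (log2 fold change -2.83, adjusted p = 7.24e-07).

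Set side by side in oil, 4 of 10 members were lower and 0 higher in ST than LT cells, beside 28.5% of all genes called in either direction. These were Tet1, Asxl1, Tet3 and Dnmt3a, all with transcripts in the longest class, and with the length and GC trends removed limma called 0 of the 10. From MPP to ST cells 6 of 10 were higher in MPPs and 0 lower, beside 30.7% of all genes: Dnmt1 (0.67), Uhrf1 (0.74), Dnmt3a, Tet1, Tet3 and Asxl1. The median over the members was 0.51, against -0.048 over all genes and 0.34 over the genes of the longest class. With the trends removed 4 were called, beside 3283 of the 13693 genes with a transcript length. They were Dnmt1, Uhrf1, Tet1 and Asxl1, which kept their direction at 0.32, 0.67, 0.49 and 0.51. The part of transcript length was not tested beyond this removal. The tamoxifen comparison in ST cells and both comparisons of other populations with ST cells share the 3 ST oil libraries. Both comparisons of populations also set libraries of separate number series against each other.

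**Figure D5:**
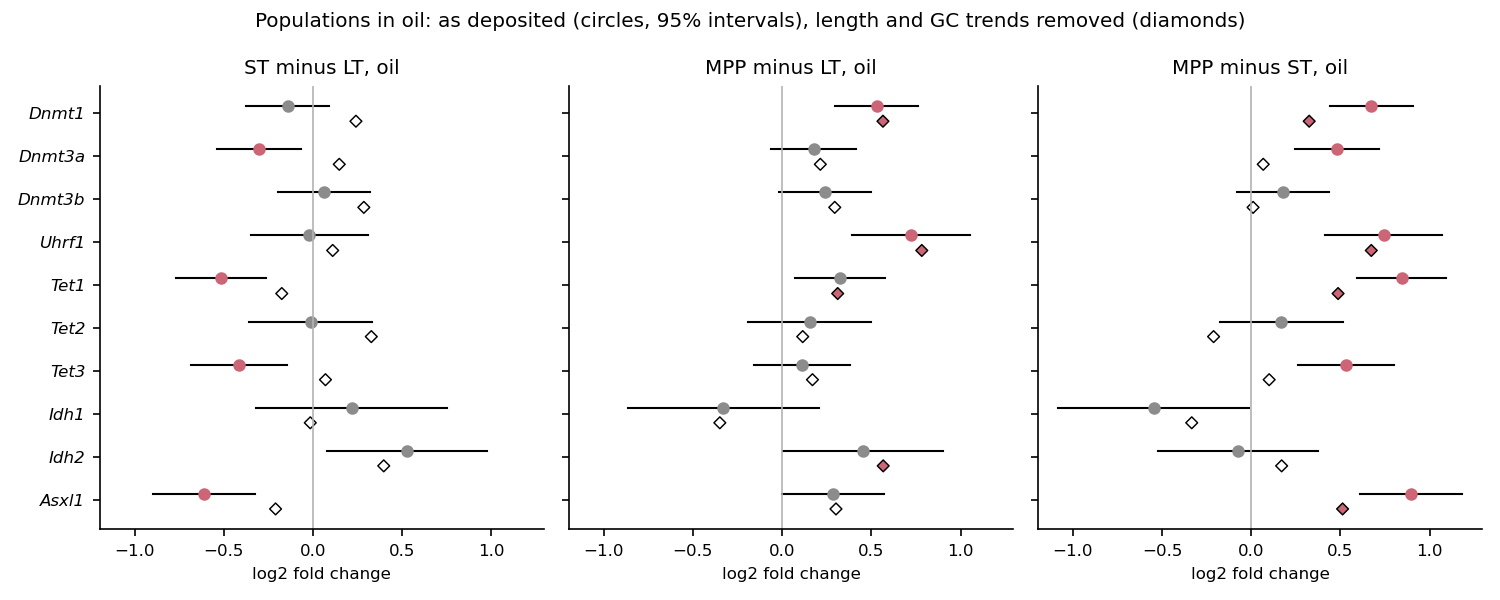
Log2 differences between populations in oil for each member: circles with 95% confidence intervals from the deposited values, diamonds with the trends of transcript length and GC content removed, red where the adjusted p is under 0.05. In ST minus LT the diamonds of Dnmt1 (0.24), Uhrf1 (0.11), Dnmt3a (0.15), Tet2 (0.33) and Tet3 (0.070) lie above 0 and their circles below it. That of Idh1 (-0.016) lies below 0 and its circle above it.

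Per kilobase of the longest coding transcript, a scale that the pattern of transcript length described above also touches, the level of Dnmt1 in MPP oil was the highest of the members at 68.0 normalised CPM per kb. Idh2 was at 46.0 and Uhrf1 at 43.2. Dnmt3b was 28.3, Asxl1 26.7, Tet1 21.3, Tet3 19.6, Dnmt3a 19.3, Tet2 15.04 and Idh1 8.94. In ST oil Idh2 was at 48.7 and Dnmt1 at 42.6. These are not ranked, since the median log2 deviation of the ST oil libraries was 0.26 to 0.36 in the shortest class, that of Idh2, and -0.26 to -0.21 in the longest, that of Dnmt1. The lengths come from an annotation other than the authors', and which transcripts the cells used is not known from the table.

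Over the 18 libraries, the genes whose log2 values followed each member most closely (Pearson r, a description over libraries that share groups, length pattern and scaling) were named for each member. For Dnmt1 they were Mcm6 (0.954), Uhrf1 and Mcm4 (0.910), and for Uhrf1 they were Dnmt1, Mcm6 (0.909) and Topbp1 (0.901). For Tet1 they were Smg1 (0.981), Med13 (0.973) and Mycbp2 (0.956), whose longest transcripts have 15557, 10546 and 15233 bases against 14369 for Tet1. For Asxl1 the closest was BC032203 (0.949), for Dnmt3a Cds2 (0.916) and for Tet3 Mlxip (0.911). Idh2 went with Cdk4 (0.938), Arl6ip1 (0.936) and Pkm2 (0.934), and Idh1 with Samm50 (0.928), Rps2 (0.898) and Park7 (0.897). Dnmt3b and Tet2 had no neighbour as close, with Krcc1 (0.743) and Gm16854 (0.809) at the top. Among the members themselves, Tet1 and Asxl1 had an r of 0.882, which for deviations from group means was 0.253, while that of Dnmt1 and Uhrf1 was 0.698. Higher values for deviations were those of Idh1 with Idh2 (0.865) and Tet2 with Asxl1 (0.740). The lowest was that of Tet1 with Idh1 (-0.836).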

How the data were processed

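RNA was measured in 18 libraries, 3 in each of 6 groups taken from the sample titles and treatment labels. Per the submitters' processing notes, Picard, cutadapt, RSEM 1.17 and limma were used with genome build NCBIM37. Per the labels' protocols, the cDNA was amplified before adaptors were ligated. The authors deposited 1 table of a normalised signal for 14419 genes. The sources used here do not give its scaling, annotation or strand setting. With a tolerance of 0.001 read, 100% of the deposited values were a whole number of reads plus 0.5, times 1 constant per library, so they are called normalised CPM. Every gene's sixth highest value was at least 1.15, so low genes had been left out. Per library, 2728800 to 5279821 reads fell in the listed genes, and 120 genes had no symbol.

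Genes were compared with limma 3.58.1 (R 4.3.3, statmod 1.5.0), with a mean trend and robust variances, on log2(value + 1) in 1 fit of all libraries with 12 residual degrees of freedom. P-values were adjusted by Benjamini-Hochberg over 14419 genes at 0.05. P-values set each difference of group means against the spread between libraries within groups, estimated over all groups together. Alternatives were other pseudocounts, a filter, quantile and TMM scaling, no trend, array weights, only the groups compared, a replicate block, each library left out, and edgeR 4.0.16 and DESeq2 1.42.0 on recovered reads. Chosen after seeing the data were a shared fit without LT tamoxifen library A, a block of treatment and letter, and removal of the trends on longest transcript length and GC content per library (GENCODE M21, 95.0% of genes). The fit was tested on simulated data. The members and gene lists were chosen with earlier results of these data known. The text names all members and, from each list, up to 3 called genes with the smallest p per comparison, and the 3 genes most like each member by Pearson r. Promoters are from RefSeq.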

Additional observations from a re-analysis of the deposited data

How the results depend on the processing

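Dnmt1 and Uhrf1 were called with tamoxifen in ST cells under every alternative run. The number of members called for the mean tamoxifen effect was 1 without trend and robust steps, beside 810 of all genes. For ST against LT cells in oil it was 2 without those steps, beside 3822 genes. With 1 library left out it was 2 to 3 (2 without LT oil library A or ST oil library C), beside 3158 to 3942 genes. With the length and GC trends removed it was 0, beside 2941 genes. There, of the members called before the removal, Dnmt3a turned to 0.15 and Tet3 to 0.070. For the tamoxifen effect in MPP minus ST the number of members was 1 (Dnmt1) with array weights, with DESeq2 and when LT tamoxifen library A was left out of the shared fit. Of all genes 155, 128 and 164 were called there. For MPP against LT cells in oil 5 members were called with array weights (beside 3568 genes) and 4 with only the groups compared (3445 genes). The number was also 4 when LT tamoxifen library A was left out of the shared fit (2602 genes) and with the length and GC trends removed (2237 genes). For MPP against ST cells in oil it was 7 with array weights (4825 genes), with only the groups compared (4705) and without LT tamoxifen library A in the shared fit (5092). It was 4 under quantile normalisation (4030) and with the length and GC trends removed (3283). Counts over all genes moved more: for tamoxifen in ST cells 967 to 2121 over the settings and 654 to 1378 with 1 library left out, in LT cells 3 to 300 and 9 to 330, and in MPPs 2 to 67 and 0 to 40. For the mean effect they were 810 to 1922 and 789 to 1717. For the effect differences they were 0 to 125 and 0 to 122 (ST minus LT), 0 to 11 and 0 to 5 (MPP minus LT), and 0 to 164 and 0 to 35 (MPP minus ST). In oil they were 2941 to 4822 (ST against LT), 1891 to 3568 (MPP against LT) and 3283 to 5092 (MPP against ST) over the settings. The causes were not tested.

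The labels do not say that a letter or number marks shared animals. The correlations of deviations between LT and ST libraries of 1 letter were 0.081 (oil A) to 0.164, with 2 of 3 pairs in oil and 3 of 3 in tamoxifen over 0.1. In each treatment 6 of 6 libraries correlated best with the one of their own letter, a hint from the data that LT and ST libraries may be paired. Oil with tamoxifen gave -0.099 to 0.130 in lettered pairs, where 0 of 6 LT and 2 of 6 ST libraries did so, and 0.068 to 0.239 in numbered MPP pairs, where 5 of 6 did. Since not every pair of a comparison was over 0.1, the fit without the block was kept. With the replicate block, 2 of 10 members were called with tamoxifen in ST cells, beside 1367 of all genes. For ST against LT cells in oil 5 of 10 were called, beside 4558 of all genes, and Idh2 joined (log2 difference 0.53, adjusted p = 0.0098). With LT and ST libraries of 1 treatment and letter as the replicate block, an alternative chosen after seeing the data, 0 members were called for the tamoxifen effect in ST minus LT (125 genes in all). MPP libraries carry numbers and share no letters with the others, so no such fit was made for comparisons across them. Members with few reads, such as Idh1, have wide intervals, and amplified cDNA without molecular identifiers limits what depth alone says.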
